A study of Solanum lycopersicum with 6 samples.

Results

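The gibberellin oxidase genes described here are 10 tomato (Solanum lycopersicum) genes chosen by their gene IDs: 4 GA 20-oxidases (GA20ox1 to GA20ox4), 2 GA 3-oxidases (GA3ox1 and GA3ox2) and 4 GA 2-oxidases (GA2ox1, GA2ox2, GA2ox4 and GA2ox5). All 10 were found among the 34075 gene IDs of both deposited tables. The tissue was dormant axillary buds, which sit in the leaf axils and can grow into side shoots, harvested 25 days after germination for RNA sequencing. There were 3 genotypes with 2 samples each, all in the cultivar labelled MT: the 156OE line, known from the study as an overexpressor of the microRNA miR156, the rSBP15 line, known from it as carrying an SBP15 gene that miR156 cannot target, and the wild type (MT). A sample was a pool of about 20 buds taken over 4 or 5 plants, and the labels do not say whether the samples of a genotype came from separate sets of plants. P-values therefore measure only the spread between these pools. The sample titles name the rSBP15 line rSBP15OE, with the suffix OE that 156OE also carries. The promoters of the transgenes and the number of independent lines are not given in the sources used here.

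Gibberellins are plant hormones that promote stem elongation and other growth. GA 20-oxidases and then GA 3-oxidases carry out the last steps that make the bioactive forms, and GA 2-oxidases inactivate bioactive gibberellins and their precursors. In many plants the transcripts of these enzymes respond to gibberellin itself, those of the synthetic enzymes being repressed and those of the GA 2-oxidases induced. miR156 is a microRNA of the juvenile phase that acts against transcripts of SBP-box transcription factors.

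The authors' deposited tables hold a log fold change with its p-value for each gene, for 156OE over MT and for rSBP15 over MT. They hold no value per library, so transcript levels and sequencing depth are unknown here, and no source used here states the logarithm's base. Standard errors (SE) were recovered from the deposited p-values. A gene is called detected where its log fold change was other than 0, as it was for all 10 gibberellin oxidase genes in both comparisons. Solyc10g078700.3, the ID chosen to check the rSBP15 label, stood at 0.52 in rSBP15 and at -0.51 in 156OE in the authors' deposited tables. With adjustment its p-values became 0.114 and 0.279 (limma-type test, Benjamini-Hochberg over all detected genes). The bud marker genes BRC1a and BRC1b, which encode transcription factors that repress bud outgrowth, were detected in both comparisons. In rSBP15 the authors' deposited table listed BRC1a at -0.18 (adjusted p 0.170) and BRC1b at -0.44 (adjusted p 0.184). In 156OE it was -0.32 for BRC1a (adjusted p 0.323) and -0.30 for BRC1b (adjusted p 0.416), again from the authors' deposited table. Neither passed the threshold. The libraries of both lines lay below those of MT without overlap in both genes. Libraries did not overlap, in either direction, in 62.7% of all detected genes in rSBP15 against MT and in 38.6% in 156OE against MT. The part of these markers in the values of the gibberellin oxidase genes was not tested.

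Of the gibberellin oxidase genes, 2 fell in rSBP15 buds, GA20ox2 and GA20ox3, and in 156OE buds none of the 10 passed the threshold of an adjusted p of 0.05. The highest log fold changes in rSBP15 were those of the neighbouring genes GA2ox4 and GA2ox5, which missed the threshold, as did the remaining 6 genes. The 2 called genes of 10 (limma-type test, Benjamini-Hochberg over 25329 detected genes) stand beside a background of 5.58% of all detected genes called in rSBP15 against MT, and 2.94% called lower. At an unadjusted p under 0.05, 8 of the 10 were listed, against 33.3% of all detected genes. Of these, 5 were higher in rSBP15, against 17.1%, and 3 were lower, against 16.2%. The median log fold change of the 10 was 0.111 and the median size 0.243, and over all detected genes these were 0.000527 and 0.109. In bulk buds, fewer cells of a type and less RNA per cell cannot be told apart.

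Since each genotype had 2 libraries and both tables rest on the same MT libraries, the recovered variances bound how far apart the libraries of a genotype lay. These bounds are used here in place of values per library, as log values relative to the MT mean, and which library is replicate 1 is not known. In rSBP15 against MT, 8 of the 10 genes had libraries that did not overlap whatever share of the spread the MT libraries took, as had 62.7% of all detected genes. The libraries of the other two, GA3ox1 and GA2ox1, overlapped, as did those of 24.1% of all detected genes.

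**Figure D1:**
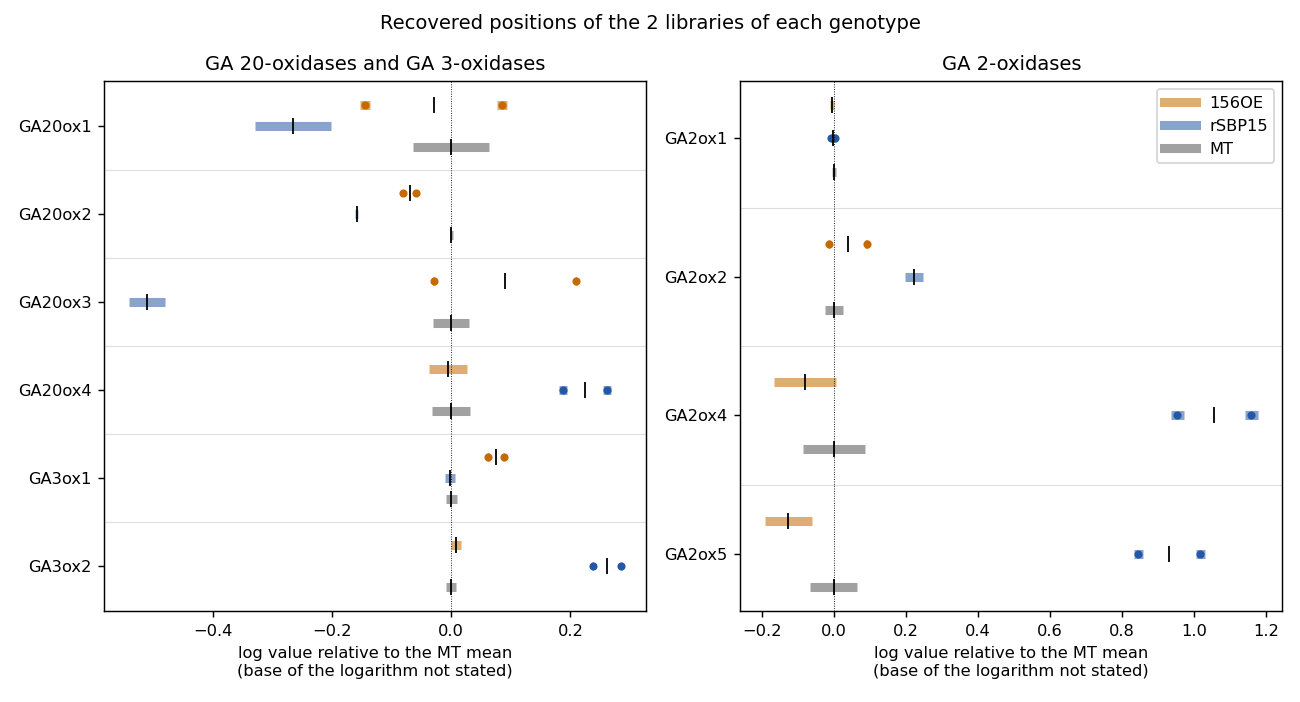
Recovered positions of the 2 libraries of each genotype on the horizontal axis, as log values relative to the MT mean, for GA 20-oxidases and GA 3-oxidases (left) and GA 2-oxidases (right). Coloured segments span where the libraries can lie, a dot marks the middle of a segment that holds 1 library, and the black tick is the genotype mean. The rSBP15 libraries of GA2ox4 and GA2ox5 lie between 0.833 and 1.18, apart from all 156OE and MT libraries, and the 156OE libraries of GA20ox1 and GA20ox3 lie apart from each other.

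Among the GA 20-oxidases, GA20ox3 (Solyc11g072310.2) fell by the larger amount in rSBP15. Its rSBP15 libraries lay between -0.54 and -0.48, against MT libraries within 0.0304 of their mean. The authors' deposited table listed it at a log fold change of -0.51 (SE 0.0304, 95% interval -0.61 to -0.41), and its adjusted p was 0.0416 (limma-type test). Both rSBP15 libraries were thus below both MT libraries by more than the distance within either genotype. Libraries did not overlap, in either direction, in 62.7% of all detected genes. The call is close to the threshold: over 5 alternative tests, which change the moderation, the residual variance or the genes adjusted over, the adjusted p ranged from 0.0215 to 0.103, with 2 of them under 0.05.

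GA20ox2 (Solyc06g035530.3) fell by a smaller amount with very little spread. Its rSBP15 libraries lay between -0.161 and -0.156, and its MT libraries within 0.00262 of their mean. The authors' deposited table listed it at a log fold change of -0.16 (SE 0.00262, 95% interval -0.168 to -0.149), and its adjusted p was 0.0227 (limma-type test). By p-value it stood within the first 0.300% of detected genes, while 40.6% of them changed by as much or more. Over the alternatives its adjusted p ranged from 0.0107 to 0.0722, with 4 of 5 under 0.05.

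The other two GA 20-oxidases did not pass the threshold and stood on opposite sides of MT. For GA20ox1 (Solyc03g006880.3) the authors' deposited table gave -0.26 in rSBP15 (SE 0.0637, 95% interval -0.48 to -0.0461), with 0.123 as adjusted p. Its rSBP15 libraries lay between -0.33 and -0.20 and its MT libraries within 0.0637 of their mean. For GA20ox4 (Solyc01g093980.3) the authors' deposited table gave 0.22 in rSBP15 (SE 0.0436, 95% interval 0.0746 to 0.37), with 0.0992 as adjusted p. Its rSBP15 libraries lay at 0.181 to 0.194 and at 0.255 to 0.268 and its MT libraries within 0.0316 of their mean. The 4 genes of this class therefore did not share a direction, with 3 lower and 1 higher in rSBP15, and the libraries of all 4 did not overlap those of MT, as was the case for 62.7% of all detected genes.

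The GA 3-oxidases, which catalyse the step to the bioactive hormone, stood at unlike values in rSBP15. GA3ox2 (Solyc03g119910.4) had rSBP15 libraries at 0.237 to 0.238 and at 0.285 to 0.286, against MT libraries within 0.00828 of their mean. The authors' deposited table listed it at 0.26 in rSBP15 (SE 0.0246, 95% interval 0.18 to 0.35). Its adjusted p of 0.0561 missed the threshold, and over the alternatives it ranged from 0.010 to 0.121, with 3 of 5 under 0.05. GA3ox1 (Solyc06g066820.4) had rSBP15 libraries between -0.0110 and 0.00693, within or near the span of its MT libraries, 0.00896 on each side of their mean. It was listed at -0.00203 in rSBP15 in the authors' deposited table (95% interval -0.0329 to 0.0288), with 0.878 as adjusted p.

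GA2ox4 (Solyc07g061720.3) and GA2ox5 (Solyc07g061730.3), both of the class that inactivates gibberellins, had the highest log fold changes of the 10 genes in rSBP15. For GA2ox4 the rSBP15 libraries lay at 0.936 to 0.972 and at 1.14 to 1.18, against MT libraries within 0.0864 of their mean. For GA2ox5 the rSBP15 libraries lay at 0.833 to 0.858 and at 1.01 to 1.03, against MT libraries within 0.0651 of their mean. In both genes each rSBP15 library was above each MT library, where 62.7% of all detected genes had no overlap in either direction. The distance between the rSBP15 libraries was at most 0.242 in GA2ox4 and 0.196 in GA2ox5.

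The authors' deposited table listed GA2ox4 at 1.06 (SE 0.121, 95% interval 0.64 to 1.47) and GA2ox5 at 0.93 (SE 0.0982, 95% interval 0.59 to 1.27) in rSBP15. By size they stood within the first 2.41% and 3.28% of all detected genes, and by p-value within the first 9.95% and 8.62%. Their adjusted p-values of 0.0626 and 0.0597 (limma-type test) missed the threshold. Over the alternatives these ranged from 0.0105 to 0.127 for GA2ox4 and from 0.00971 to 0.124 for GA2ox5, with 3 of 5 under 0.05 for each.

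**Figure D2:**
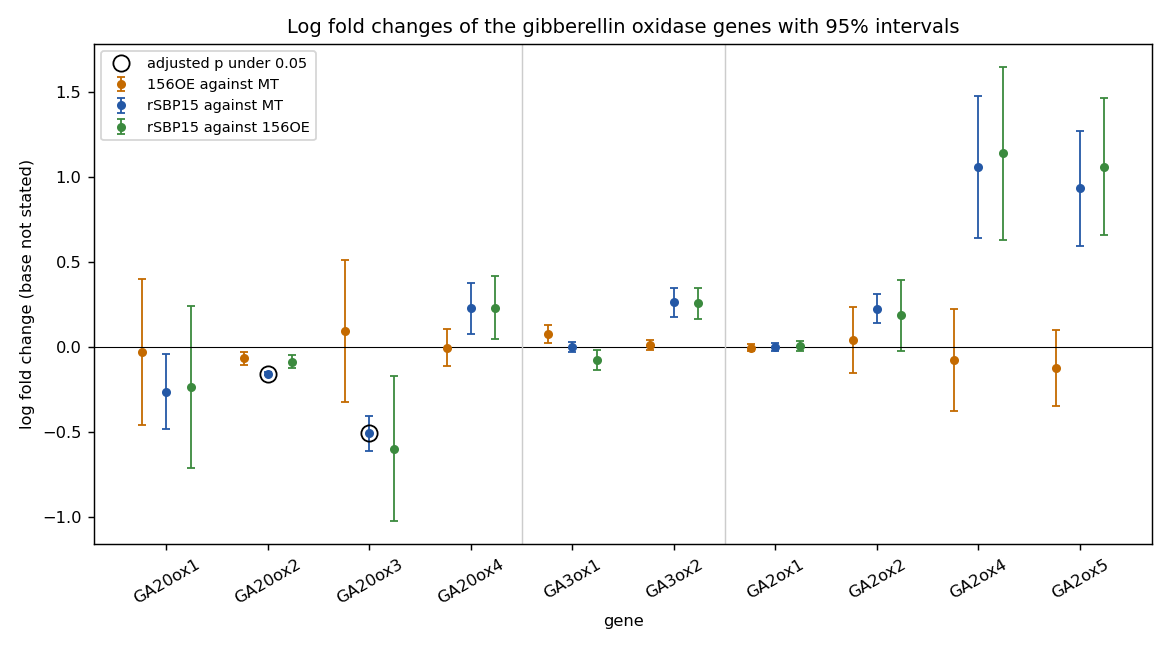
Log fold changes (vertical axis, base not stated) of the 10 genes in 156OE against MT, rSBP15 against MT and rSBP15 against 156OE, with 95% intervals from the moderated test. Rings mark an adjusted p under 0.05, which GA20ox2 and GA20ox3 reached in rSBP15 against MT, while GA2ox4 and GA2ox5 had the highest values in that comparison, 1.06 and 0.93.

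These genes have consecutive IDs on chromosome 7, and in the RefSeq annotation of the assembly SLM_r2.1 there were 0 protein-coding genes between them. How reads that match both copies were assigned is not given in the sources used here, so their values may not be separate measurements. The 6 IDs that come before the pair in ID order were all listed at 0 in both of the authors' deposited tables. ID order skips a stretch of numbers within these 6, so not all of them are close to the pair in number. The 6 IDs after the pair had log fold changes between -1.12 and 0.64 in rSBP15 in the authors' deposited table, 3 higher and 3 lower than MT. Of these 6, 2 passed the threshold, against 5.58% of all detected genes, and both were lower in rSBP15. The authors' deposited table listed Solyc07g061750.4 at -1.12 (adjusted p 0.0411) and Solyc07g061760.3 at -0.59 (adjusted p 0.0297), with its limma-type p-values adjusted here. In 156OE the authors' deposited table listed them at -1.35 (adjusted p 0.197) and at -0.42 (adjusted p 0.411), both below MT as well. They were named after their values were seen.

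**Figure D3:**
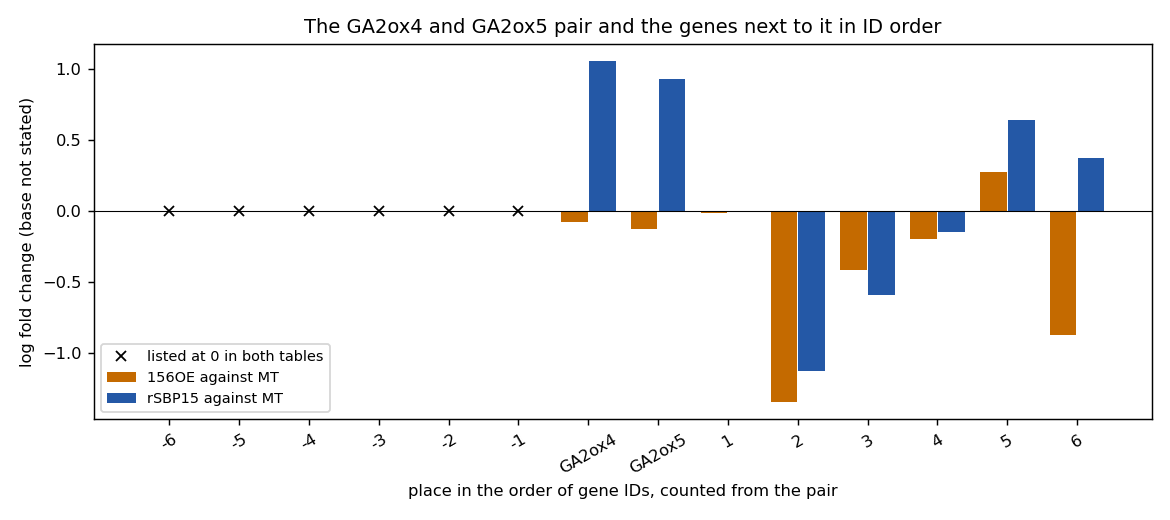
Log fold changes (vertical axis, base not stated) in 156OE and rSBP15 against MT for GA2ox4, GA2ox5 and the 6 IDs on each side in ID order. Not all IDs before the pair are close to it in number. Crosses mark genes listed at 0 in both tables. The bars of the pair in rSBP15 reach 1.06 and 0.93, while those of the 6 genes after it lie between -1.12 and 0.64.

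GA2ox2 (Solyc07g056670.3), on the same chromosome, had rSBP15 libraries between 0.198 and 0.248, against MT libraries within 0.0249 of their mean. The authors' deposited table listed it at 0.22 in rSBP15 (SE 0.0249, 95% interval 0.14 to 0.31). Its adjusted p of 0.0614 missed the threshold, and over the alternatives it ranged from 0.0371 to 0.126, with 2 of 5 under 0.05.

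GA2ox1 (Solyc05g053340.4) had the smallest log fold changes of the GA 2-oxidases, -0.00140 in rSBP15 (SE 0.00663) and -0.00534 in 156OE (SE 0.00534) in the authors' deposited tables. In the 156OE comparison its p-value lay within 1e-06 of that of a gene found in 1 of 4 libraries. With the log fold change below 0, that library is an MT one, 0.0107 above the other 3. The MT values then place the rSBP15 mean 0.00393 above this lowest value, and the recovered distance of each rSBP15 library from that mean was also 0.00393. One rSBP15 library thus lay 0.00787 above the lowest value and the other at it. GA2ox1 was therefore above it in 1 of 2 rSBP15 libraries, 0 of 2 156OE libraries and 1 of 2 MT libraries, and a difference between the genotypes was not detectable at these values.

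In 156OE against MT, 0 of the 10 genes had an adjusted p under 0.05, beside a background of 0.0201% of 24920 detected genes (limma-type test, Benjamini-Hochberg over all detected genes). Their adjusted p-values lay between 0.260 and 0.957, and none of the 5 alternative tests brought any of them under 0.05. At an unadjusted p under 0.05 there were 2 of 10, against 13.2% of all detected genes. The median log fold change was -0.00544 and the median size 0.0540, and over all detected genes these were -0.000594 and 0.0596. Libraries did not overlap in 3 of the 10 genes, against 38.6% of all detected genes, and overlapped in 6, against 45.6%. GA2ox1 was not determined by the bounds alone.

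The genes without overlap were GA20ox2, GA3ox1 and GA2ox5. For GA20ox2 the authors' deposited table gave -0.0694 in 156OE (SE 0.0110) and a p of 0.0136, with 0.260 after adjustment. For GA3ox1 the authors' deposited table gave 0.0745 in 156OE (SE 0.0148) and a p of 0.0222, with 0.296 after adjustment. GA2ox5 was listed at -0.126 in the authors' deposited table (SE 0.0651), with 0.550 as adjusted p. Its 156OE and MT spans touch in the plot of positions, but both genotypes cannot be at the ends of their spans at once, since the deposited p-value fixes the sum of their variances. In GA20ox2 the 156OE libraries, at -0.0804 to -0.0801 and at -0.0587 to -0.0583, lay between those of rSBP15 and those of MT.

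For 5 of the 10 genes the 156OE libraries differed from each other by more than the libraries of the other genotypes can have, and for 2, GA3ox2 and GA2ox5, the rSBP15 libraries did. The 5 were GA20ox1, GA20ox2, GA20ox3, GA3ox1 and GA2ox2, of which GA20ox2 and GA3ox1 had 156OE libraries apart from those of MT as above. These counts were made for the 10 genes only, so they have no background share. Over all detected genes the median SE was also larger for the 156OE comparison, at 0.0624, than for the rSBP15 comparison, at 0.0514. Whether the wider 156OE spread is particular to the gibberellin oxidase genes was not tested. In GA20ox3 the distance between the 156OE libraries was 0.234 to 0.242, against at most 0.0608 between the rSBP15 and between the MT libraries. One 156OE library lay at 0.207 to 0.211 and the other at -0.0305 to -0.0266, near the lower end of the range open to the MT libraries. In GA20ox1 the distance was 0.212 to 0.248 in 156OE, against at most 0.127 in rSBP15 and in MT. In GA2ox2 it was 0.0994 to 0.111 in 156OE, against at most 0.0498 in rSBP15 and in MT. The log fold changes of GA20ox3, GA20ox1 and GA2ox2 in 156OE in the authors' deposited table, 0.0904, -0.0296 and 0.0386, were all smaller in size than their SE of 0.121, 0.124 and 0.0556.

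**Figure D4:**
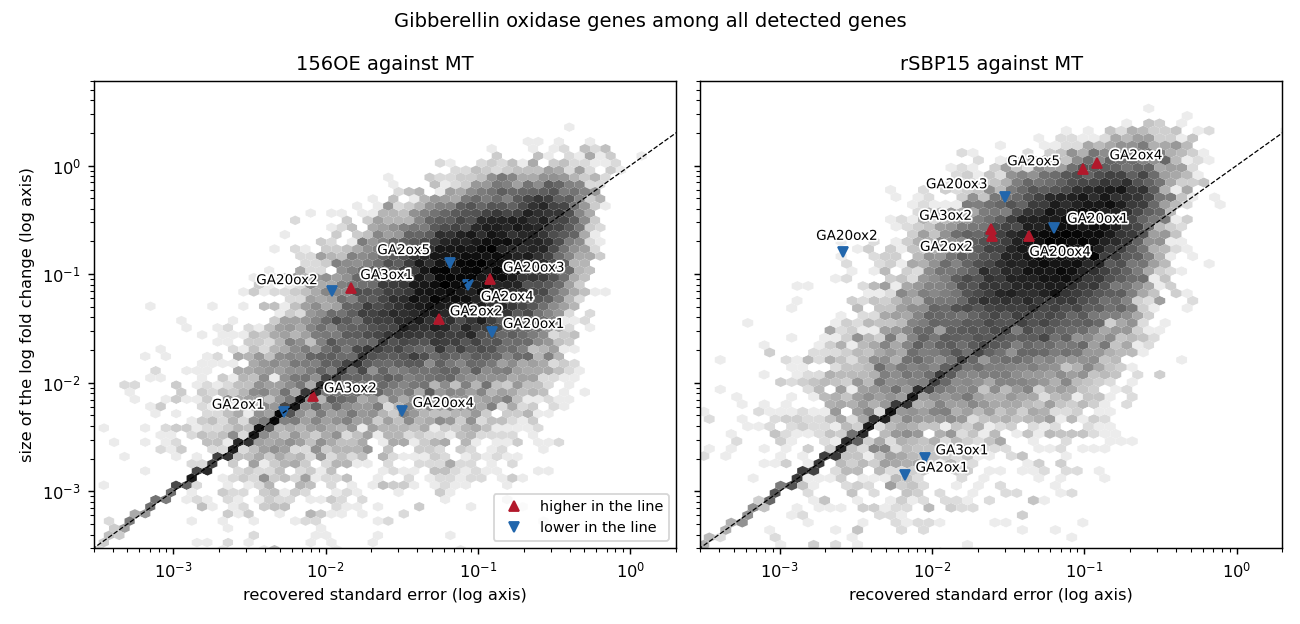
Size of the log fold change (vertical log axis) against the recovered standard error (horizontal log axis) in 156OE against MT (left) and rSBP15 against MT (right), with the detected genes that lie within the axes in grey by density and the 10 genes as triangles pointing up where higher and down where lower in the line. On the dashed line the size equals the standard error. In rSBP15, 8 of the 10 genes lie above the line and GA3ox1 and GA2ox1 below it; GA2ox1 lies on it in 156OE.

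The lines were then set against each other through the difference of their log fold changes, which share the MT libraries, with the residual variance at its upper bound. Of the 10 genes, 0 had an adjusted p under 0.05 in rSBP15 against 156OE, as had 0% of all 25657 genes detected in at least 1 comparison (limma moderation, Benjamini-Hochberg). At an unadjusted p under 0.05 there were 7, against 19.6% of all genes. Of these, 4 were higher in rSBP15 than in 156OE, against 10.7%, and 3 were lower, against 8.92%. Libraries of the lines did not overlap in 9 of the 10 genes, against 49.7% of all genes, and GA2ox1 was not determined.

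The differences of rSBP15 from 156OE were 1.14 in GA2ox4 (SE at most 0.149, 95% interval 0.63 to 1.65, adjusted p 0.172) and 1.06 in GA2ox5 (SE at most 0.118, 95% interval 0.65 to 1.46, adjusted p 0.171). GA20ox3 stood at -0.60 (95% interval -1.03 to -0.17, adjusted p 0.206) and GA3ox2 at 0.25 (95% interval 0.16 to 0.34, adjusted p 0.168). None of these passed the threshold in this test, whose residual variance takes in the MT spread from both comparisons against MT. In a limma fit of all 6 libraries with the residual variance at its upper bound, 6 of the 10 genes did, beside 14.4% of all genes. There GA20ox4, GA3ox2, GA2ox4 and GA2ox5 were higher in rSBP15 and GA20ox2 and GA20ox3 lower, with adjusted p-values between 0.0131 and 0.0440.

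The other genes of the pathway were a list of 9 IDs for the early synthetic enzymes, the GA 2-oxidase GA2ox3, the 3 GID1 receptors and the DELLA repressor PROCERA, of which 8 were in the tables. In rSBP15 against MT 1 of the 8 passed the threshold, beside 5.58% of all detected genes (limma-type tests throughout). In 156OE against MT 0 did, beside 0.0201%, and in rSBP15 against 156OE 0 did, beside 0%. At an unadjusted p under 0.05 there were 4 in rSBP15 against MT, beside 33.3%, 3 in 156OE against MT, beside 13.2%, and 2 in rSBP15 against 156OE, beside 19.6%. The median log fold changes of the 8 were 0.159 in rSBP15 and -0.104 in 156OE.

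The receptor gene GID1b1 (Solyc09g074270.3) fell in rSBP15, by 0.52 in the authors' deposited table (SE 0.0310). Its adjusted p was 0.0413 (limma-type test) and ranged from 0.0179 to 0.103 over the alternatives, with 3 of 5 under 0.05. In 156OE the authors' deposited table listed it at -0.69 (SE 0.0871), with 0.229 as adjusted p. GA2ox3 (Solyc01g079200.4), of the inactivating class, was listed at 0.73 in rSBP15 (SE 0.0667, adjusted p 0.0547) and at -0.24 in 156OE (SE 0.0508, adjusted p 0.312) in the authors' deposited tables. The difference between the lines in GA2ox3 was 0.97 (95% interval 0.68 to 1.26, adjusted p 0.164).

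The remaining listed genes with an unadjusted p under 0.05 in a comparison had smaller log fold changes. CPS (Solyc06g084240.2), which catalyses the first committed step of gibberellin synthesis, was listed at 0.19 in rSBP15 in the authors' deposited table, and 0.0898 was its adjusted p. The receptor gene GID1a (Solyc01g098390.3) was listed at 0.19 in rSBP15 (adjusted p 0.104) and at -0.17 in 156OE (adjusted p 0.447) in the authors' deposited tables. PROCERA (Solyc11g011260.1), whose protein represses gibberellin responses, was listed at 0.13 in rSBP15 (adjusted p 0.373) and at 0.17 in 156OE (adjusted p 0.264) in the authors' deposited tables.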

How the data were processed

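Per the labels, bud RNA was extracted with TRIzol and DNase-treated, and stranded libraries were made from poly(A) RNA. The submitters' processing notes name HISAT2 and StringTie, and the genome build, expression unit, filters and test are not given in the sources used here. The authors deposited 2 tables of 34075 genes whose columns, per the file headers, are logFC (a log fold change) and P.Value (a p-value). Benjamini-Hochberg adjustment ran over the genes with a log fold change other than 0 (24920 for 156OE and 25329 for rSBP15), at a threshold of 0.05. Residual variances were recovered by matching the p-values to an unpaired limma fit of 2 libraries against 2. On the curve expected for genes found in 1 of 4 libraries lay 1224 and 1262 genes (within 1e-06 in p), at 0.347 and 0.360 prior degrees of freedom, and limma 3.58.1 (R 4.3.3) returned the same values from the recovered variances. Shared MT values were checked on 402 genes with equal changes in both tables, all below 0, and on 737 and 328 genes at 0 in 1 table only, all above 0 in the other. For rSBP15 against 156OE the summed variance was used, with 2 residual degrees of freedom and the moderation refitted over every row. Intervals are 95% intervals of the moderated test. Alternatives adjusted over every row, refitted or dropped the moderation, fitted all 6 libraries, or moved the threshold. The recovery, bounds and fits were tested on simulated data that were themselves fitted with this limma model. That test cannot show whether the deposited values came from such a fit.

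Gene names follow published tomato nomenclature and are not in the tables. The RefSeq table (SLM_r2.1, 41476 genes) holds 0 of the IDs, and it lists symbols for all 10 gibberellin oxidase genes, each on the chromosome its ID names. Its entry taken for GA3ox2, with the symbol 3OH-2, has SlGA3ox1 among its synonyms, as does the entry for GA3ox1. Genes named are the 10, the listed pathway genes with an unadjusted p under 0.05 in a comparison, and 3 checks of label and tissue. Outside this rule, the 2 genes beside the GA2ox4 and GA2ox5 pair that passed the threshold were named after their values were seen. Members and lists were chosen with earlier results of these data known.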

Additional observations from a re-analysis of the deposited data

How the results depend on the processing

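The share of all detected genes called under the same setting stands in parentheses. The 2 gibberellin oxidase genes called in rSBP15 against MT (5.58%) became 1 when every row entered the adjustment (2.15%), 6 when undetected genes were left out of the moderation (14.7%), 0 unmoderated (0.17%), 4 and 7 with all 6 libraries fitted at the upper and lower bound of the residual variance (11.3% and 19.9%), 0 at an adjusted p under 0.01 (0.0079%) and 8 at an unadjusted p under 0.05 (33.3%). In rSBP15 against 156OE the 0 became 6 and 7 with all 6 libraries (14.4% and 23.2%) and 7 at an unadjusted p (19.6%), and was 0 in the other alternatives, the mean of both variances included (0.0078%). In 156OE against MT the 0 became 2 at an unadjusted p (13.2%) and was 0 in the others, where at most 0.899% of all detected genes were called. Counts of the 8 other pathway genes stand beside the same shares. Their 1 called in rSBP15 against MT became, in the same order, 0, 2, 0, 3 and 3, 0 and 4. Their 0 in rSBP15 against 156OE became 2 and 5 with all 6 libraries and 2 at an unadjusted p, and their 0 in 156OE against MT became 3 at an unadjusted p. GA20ox3 had adjusted p-values of 0.0560 over every row, 0.103 unmoderated and 0.0502 with all 6 libraries at the upper bound, and GA20ox2 of 0.0722 unmoderated. The cause was not tested. Fits of all 6 libraries have 3 residual degrees of freedom and moderate over detected genes.

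No paired analysis was possible because no values per library were at hand. Leaving out a replicate and the alternatives in normalization, filter, count model and pseudocount were therefore not run. Each alternative changes the test alone and leaves the log fold changes as they are.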
